A study of Homo sapiens with 12 samples.

Results

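The genes described here handle zinc: 4 metallothioneins (MT2A, MT1E, MT1F and MT1X), the metal-sensing transcription factor MTF1, the zinc exporter SLC30A1 and the zinc importers SLC39A6 and SLC39A10. These 8 genes, of 60612 named rows in the count table, were selected on their measured values in the libraries analysed here, so their levels and fold changes are given as a description without a test. MT1E held no read in any library. The other 7 were among the 11803 genes that passed the filter on low counts, and they held between 38 and 2164 reads in every library, so none of them passed only through a group in which it was high.

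RNA came from CAMA-1, a human breast cancer line in long use that carries the oestrogen receptor (ER). The cells were treated with vehicle (DMSO), with abemaciclib at 100 nM, a drug that blocks the cell cycle kinases CDK4 and CDK6, with fulvestrant at 5 nM, a drug that binds ER and causes its degradation, or with both drugs, for 5 days. These doses are those of the labels, and the study's methods give a higher abemaciclib dose as their default. For the double treatment the labels give no doses of their own. There were 3 libraries in each of 4 groups, made by 3′ RNA-seq, in which a read is taken near the 3′ end of a polyadenylated transcript, and all groups come from the same line grown in the same medium. Total counts ran from 3299119 to 5164667 per library, and all 12 libraries had their closest correlation within their own group. The lowest correlation within any group was 0.970, between fulvestrant replicates 2 and 3. Replicate 1 of that group had 0.978 with replicate 3 and 0.981 with replicate 2. All 8 luminal epithelial markers had reads in every library, and their summed level, carried largely by GATA3 and KRT19, was 5570 to 5916 CPM in DMSO and 6595 to 7653 CPM in the treated groups. The progesterone receptor gene PGR, a marker among them, was near the floor with fulvestrant, where it held 4, 2 and 1 reads, against 52, 77 and 65 in DMSO.

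Metallothioneins are small, cysteine-rich proteins that bind zinc and copper in the cytosol, buffer free zinc and take up cadmium and oxidants. Their genes lie in a cluster on chromosome 16 and are switched on by MTF1, which binds zinc through its own zinc fingers and then occupies short metal response elements in promoters. SLC30A1 (ZnT1) moves zinc out across the plasma membrane and is itself a classical MTF1 target. SLC39A6 (ZIP6, first described as the oestrogen-regulated gene LIV-1) and SLC39A10 (ZIP10) are related importers that can form a complex at the plasma membrane.

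On GRCh38 (GENCODE release 44), MT2A lies at chr16:56608584-56609497, MT1E at chr16:56625475-56627112, MT1F at chr16:56657731-56660698 and MT1X at chr16:56682470-56684196, all on the plus strand. MTF1 lies at chr1:37809574-37859592 and SLC30A1 at chr1:211571568-211579161, both on the minus strand. SLC39A6 lies at chr18:36108531-36129385 on the minus strand and SLC39A10 at chr2:195575977-195737702 on the plus strand. All are protein-coding genes.

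The RefSeq promoter table (GRCh38.p14) held 6 of the 8 genes. MT1E and MT1F, metallothioneins of the same cluster, had no entry there. The 250 bases before the start site are shown for MT2A (chr16:56608334-56608583, plus strand), MT1X (chr16:56682220-56682469, plus strand) and SLC30A1 (chr1:211579162-211579411, minus strand). Of the 6, these are the classical MTF1 targets, and the metallothioneins and the exporter differed in direction with abemaciclib. Capitals mark matches to the core of the metal response element, searched as TGCGCNC and TGCACNC on both strands. No matches overlapped.
MT2A: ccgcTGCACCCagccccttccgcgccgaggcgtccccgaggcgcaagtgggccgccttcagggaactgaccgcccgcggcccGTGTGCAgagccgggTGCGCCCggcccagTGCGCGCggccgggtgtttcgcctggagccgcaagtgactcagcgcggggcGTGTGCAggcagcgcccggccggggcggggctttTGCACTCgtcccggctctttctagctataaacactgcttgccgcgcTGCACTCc
MT1X: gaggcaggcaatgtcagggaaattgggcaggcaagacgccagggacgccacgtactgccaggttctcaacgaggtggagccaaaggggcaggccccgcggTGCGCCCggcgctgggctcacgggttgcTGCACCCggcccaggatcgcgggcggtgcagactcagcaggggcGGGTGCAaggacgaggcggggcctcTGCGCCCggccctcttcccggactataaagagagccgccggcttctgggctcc
SLC30A1: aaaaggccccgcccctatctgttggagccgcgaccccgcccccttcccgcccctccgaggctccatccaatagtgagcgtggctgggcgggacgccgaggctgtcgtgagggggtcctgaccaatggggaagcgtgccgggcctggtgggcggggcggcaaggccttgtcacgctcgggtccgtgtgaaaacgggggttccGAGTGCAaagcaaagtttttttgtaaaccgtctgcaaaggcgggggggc

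The MT2A window held 7 matches, the one nearest the start site 8 bases before it. The MT1X window held 4 matches and the SLC30A1 window 1, which lay 49 bases before the start. SLC39A6 had 1 match, and MTF1 and SLC39A10 had 0. Of 35116 promoter windows of the same length, 24.8% held at least 1 match, 0.37% at least 4 and 0.0313% at least 7. A match is a description of the letters only.

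MT2A was the most abundant metallothionein in every group. In CPM, the read count normalised to scaled library size, it measured 404.85, 411.25 and 413.82 in the DMSO libraries. It measured 54.4, 60.9 and 61.7 with abemaciclib, 88.2, 108.9 and 90.5 with fulvestrant, and 34.9, 31.2 and 35.9 with the combination. The groups did not overlap anywhere: every DMSO library lay above every fulvestrant library, every fulvestrant library above every abemaciclib library, and every abemaciclib library above every combination library. The fitted log2 fold change against DMSO was -2.80 ± 0.09 (SE) with abemaciclib, -2.10 ± 0.09 with fulvestrant and -3.59 ± 0.10 with the combination. The MT2A level in DMSO was thus 6.96 times that with abemaciclib, 4.29 times that with fulvestrant and 12.0 times that with the combination. Only 38 of the 11803 genes tested had a lower log2 value than MT2A with abemaciclib, against 352 with fulvestrant and 201 with the combination. Ranked by mean CPM, it was gene 313 in DMSO, 3186 with abemaciclib, 1932 with fulvestrant and 4790 with the combination. CPM is a share of the library, and in bulk RNA fewer cells that express a gene and less of its RNA per cell cannot be told apart.

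MT1F, a second zinc-binding isoform, was present at a much lower level. It measured 28.2, 33.4 and 27.3 CPM in DMSO and 8.60, 10.8 and 9.60 CPM with abemaciclib. Fulvestrant libraries held 12.8, 14.1 and 19.8 CPM, and combination libraries 15.4, 13.7 and 8.93 CPM. All treated libraries lay below all DMSO libraries, but fulvestrant and combination overlapped, as did combination and abemaciclib. The log2 fold change against DMSO was -1.62 ± 0.19 with abemaciclib, -0.92 ± 0.18 with fulvestrant and -1.25 ± 0.18 with the combination. Without fulvestrant replicate 3, the fulvestrant value was -1.15.

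MT1X, another isoform of the cluster, followed the same order of group means. It measured 29.4, 28.7 and 38.0 CPM in DMSO and 10.0, 9.71 and 15.2 CPM with abemaciclib. With fulvestrant it measured 24.2, 20.3 and 20.3 CPM, and with the combination 14.0, 14.5 and 15.3 CPM. DMSO lay above fulvestrant and fulvestrant above the other two groups without overlap, whereas combination and abemaciclib overlapped. The log2 fold change against DMSO was -1.48 ± 0.17 with abemaciclib, -0.57 ± 0.16 with fulvestrant and -1.13 ± 0.16 with the combination.

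**Figure D1:**
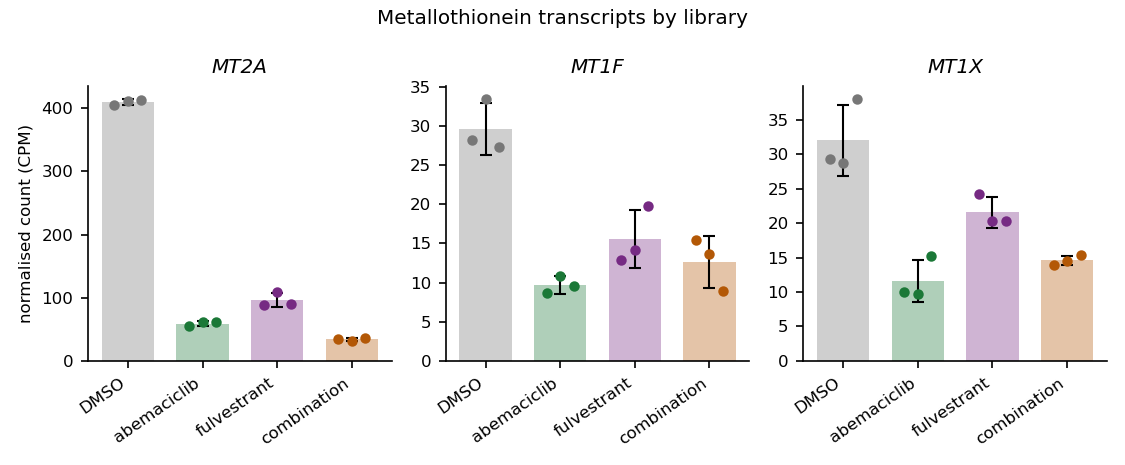
Normalised counts (CPM, y axis from 0) of MT2A, MT1F and MT1X in the 4 treatment groups (x axis). Points are libraries, bars are means and error bars are SD (n = 3). The DMSO libraries sit above all treated libraries in each panel, and MT2A has its lowest mean, 34.0 ± 2.47 CPM, with the combination, while MT1F and MT1X have theirs with abemaciclib alone.

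Because MT2A was lower by a larger factor than the other isoforms, the make-up of the metallothionein reads differed between groups. Summed over MT2A, MT1F and MT1X, the level was 471.7 ± 8.49 CPM in DMSO (SD, n = 3), 80.3 ± 6.77 with abemaciclib, 133 ± 9.26 with fulvestrant and 61.3 ± 2.62 with the combination. MT2A supplied 86.9% ± 0.592 of these reads in DMSO, 73.6% ± 1.92 with abemaciclib, 71.9% ± 3.59 with fulvestrant and 55.5% ± 3.69 with the combination. The MT1X share was 6.78% ± 1.01 in DMSO and 23.9% ± 1.93 with the combination, and the MT1F share 6.29% ± 0.705 and 20.6% ± 5.01. Libraries of the abemaciclib and fulvestrant groups overlapped in the MT2A share (71.3% to 74.8% and 69.3% to 76.0%), and no other pair of groups did. The sums rest on 1558 to 2491 reads per DMSO library and on 267 to 310 per combination library. For combination replicate 2, which had the lowest share, the 95% Wilson interval ran from 46.8% to 58.3%, and for DMSO replicate 1, which had the highest, from 85.8% to 89.1%. Molecular identifiers are not mentioned in the study's methods, and these intervals cover counting error only.

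**Figure D2:**
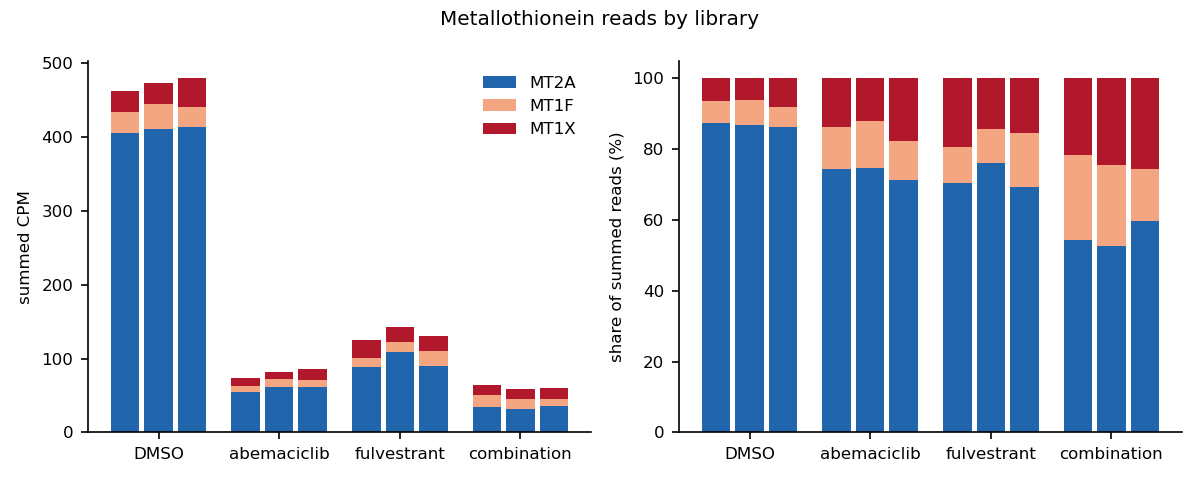
Metallothionein reads in each of the 12 libraries, grouped by treatment (x axis). The left panel stacks the CPM of MT2A, MT1F and MT1X (y axis, summed CPM) and the right panel gives each gene's share of the summed reads (y axis, %). The sum is 462 to 479 CPM in DMSO and 59.3 to 64.2 CPM with the combination, and the MT2A share is 52.6% to 59.7% in the combination libraries.

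MT1E, a further isoform of the cluster, had 0 reads in all 12 libraries. A count of 0 allows up to 3 reads, or 0.581 to 0.909 CPM depending on the library. A low value in this table need not be absence, since the broadly expressed importer SLC39A1 held only 6, 2, 3 and 2 reads in total in DMSO, abemaciclib, fulvestrant and combination. Of 17 other metallothionein genes and pseudogenes, 16 were in the table, 7 had any read and 0 passed the filter. The best covered functional gene, MT1A, held 7, 7 and 10 reads in DMSO, 4, 1 and 3 with abemaciclib, 1, 0 and 4 with fulvestrant and 3, 1 and 4 with the combination. The total of 24 reads in DMSO was larger than in any treated group, where it was 8, 5 and 8, but these counts lie at or near the floor of 3 reads per library.

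The metallothioneins resemble each other near the 3′ end, where these reads fall. Over the last 300 bases of each of the 4 metallothionein transcripts, 21 other places in the genome matched over 100 bases or more. The closest was 96.3% identical to MT2A (chromosome 4), 93.0% to MT1E, 85.3% to MT1F and 92.7% to MT1X. The longest stretch shared with another place without a mismatch was 68 bases for MT2A, 54 for MT1E, 72 for MT1F and 87 for MT1X. These are shorter than the 100-base reads, although trimmed reads need not be longer. The search was against the genome and not against spliced transcripts, so a stretch shared across an exon junction is not counted in full. Whether full-length reads differ between copies was therefore not settled. A long non-coding RNA gene without a symbol shares 61 of the last 300 bases of MT1X on the same strand. How reads with several places were treated is not given in the sources used here, so the split between isoforms is uncertain. MTF1, SLC30A1, SLC39A6 and SLC39A10 had no such match.

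MTF1, the transcription factor that switches on metallothionein genes when zinc is high, differed little between groups. It measured 37.4, 42.0 and 36.0 CPM in DMSO and 38.0, 41.9 and 38.2 with abemaciclib. With fulvestrant it measured 32.1, 35.3 and 33.3 CPM, and with the combination 39.2, 43.2 and 37.3. The fulvestrant libraries lay below those of the other 3 groups, while combination, abemaciclib and DMSO overlapped. The log2 fold change against DMSO was 0.031 ± 0.12 with abemaciclib, -0.20 ± 0.12 with fulvestrant and 0.050 ± 0.11 with the combination. These RNA levels say nothing about the zinc bound to the protein or its place in the cell.

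SLC30A1, the plasma membrane zinc exporter, was higher with abemaciclib alone. It measured 22.9, 21.9 and 27.9 CPM in DMSO and 35.2, 47.0 and 42.7 CPM with abemaciclib. With fulvestrant it measured 21.99, 26.51 and 22.56 CPM, and with the combination 25.3, 26.7 and 21.2 CPM. Every abemaciclib library lay above every other library, and the remaining groups overlapped. The log2 fold change was 0.78 ± 0.14 for abemaciclib against DMSO (1.71-fold) and -0.77 ± 0.14 for the combination against abemaciclib. Against DMSO it was -0.039 ± 0.15 with fulvestrant and 0.0035 ± 0.15 with the combination. With abemaciclib alone, the metallothioneins and this exporter thus differed from DMSO in opposite directions.

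SLC39A6, the importer described as oestrogen-regulated, was the most abundant of the transporters in the set. It measured 200.3, 193.8 and 181.7 CPM in DMSO and 219, 214 and 225 CPM with abemaciclib. With fulvestrant it measured 175, 166 and 179 CPM, and with the combination 156, 174 and 155 CPM. Abemaciclib lay above DMSO and DMSO above both groups that received fulvestrant, which overlapped each other. The log2 fold change against DMSO was 0.19 ± 0.08 with abemaciclib, -0.14 ± 0.08 with fulvestrant and -0.24 ± 0.08 with the combination, so the span between the highest and the lowest group was -0.44 ± 0.08, or 1.35-fold.

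SLC39A10, its partner, had group means close to each other. It measured 40.7, 27.6 and 33.9 CPM in DMSO and 31.0, 26.9 and 31.1 CPM with abemaciclib. With fulvestrant it measured 28.7, 27.9 and 38.1 CPM, and with the combination 36.3, 31.4 and 36.7 CPM. Neighbouring groups in the order of means all overlapped, although the combination libraries, highest on average, all lay above the abemaciclib libraries, lowest on average. The log2 fold change against DMSO was -0.18 ± 0.15 with abemaciclib, -0.084 ± 0.15 with fulvestrant and 0.050 ± 0.14 with the combination. The highest fulvestrant value came from replicate 3, and without that library the fulvestrant value was -0.24.

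**Figure D3:**
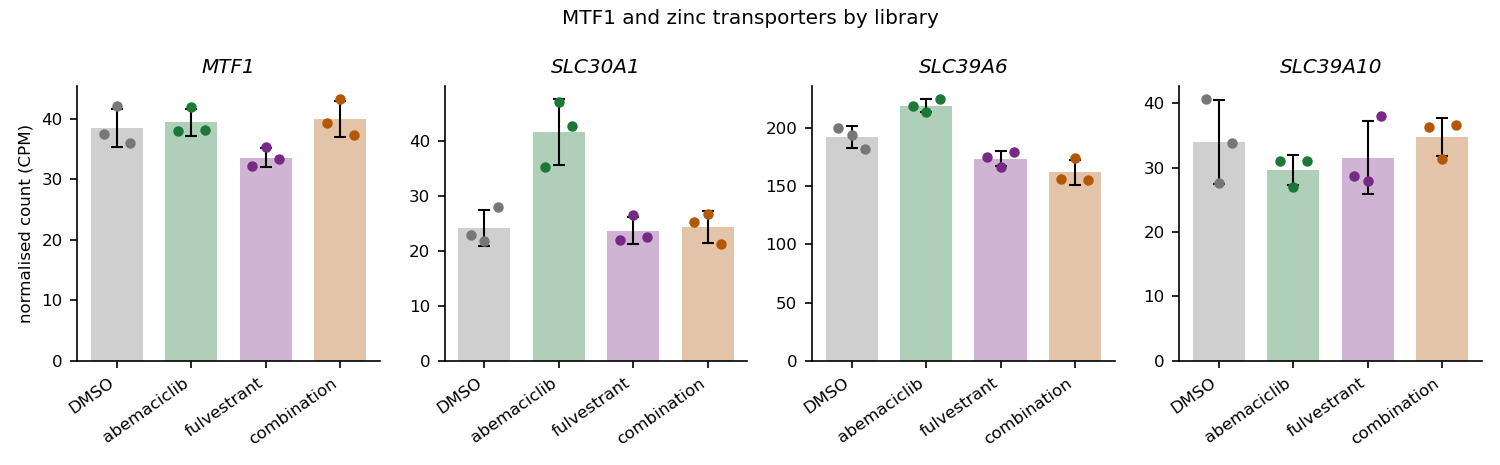
Normalised counts (CPM, y axes from 0, scaled per panel) of MTF1, SLC30A1, SLC39A6 and SLC39A10 in the 4 treatment groups (x axis). Points are libraries, bars are means and error bars are SD (n = 3). SLC30A1 stands out with abemaciclib (41.6 ± 5.97 CPM against 24.2 ± 3.24 in DMSO), and the SLC39A10 libraries overlap between neighbouring groups in the order of means.

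Counted over the 7 measured genes, 5 did not overlap between abemaciclib and DMSO, with SLC30A1 and SLC39A6 higher and the 3 metallothioneins lower. The share over all genes tested was 54.2%. Between fulvestrant and DMSO 5 of 7 did not overlap, all of them lower (the 3 metallothioneins, MTF1 and SLC39A6), against 54.7% of all genes in either direction. Between the combination and DMSO 4 of 7 did not overlap, all lower (the 3 metallothioneins and SLC39A6), against 62.1%. These shares are near the background, and since the genes were chosen with their values known, nothing is read from the counts. The median log2 fold change over all genes tested was between -0.013 and 0.011 in every comparison.

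Adding fulvestrant to abemaciclib was compared next. MT2A was lower with both drugs than with abemaciclib alone, with a log2 fold change of -0.79 ± 0.10 (1.73-fold) and no overlap. MT1F (0.38 ± 0.22) and MT1X (0.35 ± 0.19) had positive values, but their libraries overlapped. SLC30A1 and SLC39A6 were lower without overlap, at -0.77 ± 0.14 and -0.44 ± 0.08, and SLC39A10 was higher at 0.23 ± 0.15. The 4 genes that did not overlap stand against 48.5% of all genes tested.

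Adding abemaciclib to fulvestrant gave a log2 fold change of -1.49 ± 0.10 for MT2A, a 2.81-fold lower level. MT1X was lower by a smaller factor (-0.56 ± 0.17), both without overlap, and MT1F overlapped (-0.32 ± 0.20, or -0.10 without fulvestrant replicate 3). MTF1 was higher without overlap at 0.25 ± 0.12, while SLC30A1 (0.042 ± 0.15), SLC39A6 (-0.10 ± 0.08) and SLC39A10 (0.13 ± 0.15, or 0.30 without that library) overlapped. These 3 genes of 7 stand against 14.6% of all genes tested. Of all genes, 148 had a lower value than MT2A in this comparison.

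The fitted abemaciclib effect thus differed in size with and without fulvestrant for several of these genes, which was not tested for them. Over all genes tested, the interaction was called in 21.1%. The interaction, the log2 fold change with abemaciclib in the presence of fulvestrant minus that in its absence, was 1.31 ± 0.13 for MT2A, 1.30 ± 0.28 for MT1F and 0.92 ± 0.25 for MT1X. A positive value here means a smaller decrease. Of the 11803 genes tested, 247 had a higher interaction than MT2A, 252 than MT1F and 669 than MT1X. For SLC30A1 it was -0.73 ± 0.21 and for SLC39A6 -0.29 ± 0.11, where the higher level seen with abemaciclib alone was not there in the presence of fulvestrant. For MTF1 and SLC39A10 it was 0.22 ± 0.17 and 0.31 ± 0.21, the latter 0.47 without fulvestrant replicate 3. On the log2 scale an interaction of 0 means that the factors multiply, so MT2A was lowest in the combination although its value there lay above the product of both single factors.

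**Figure D4:**
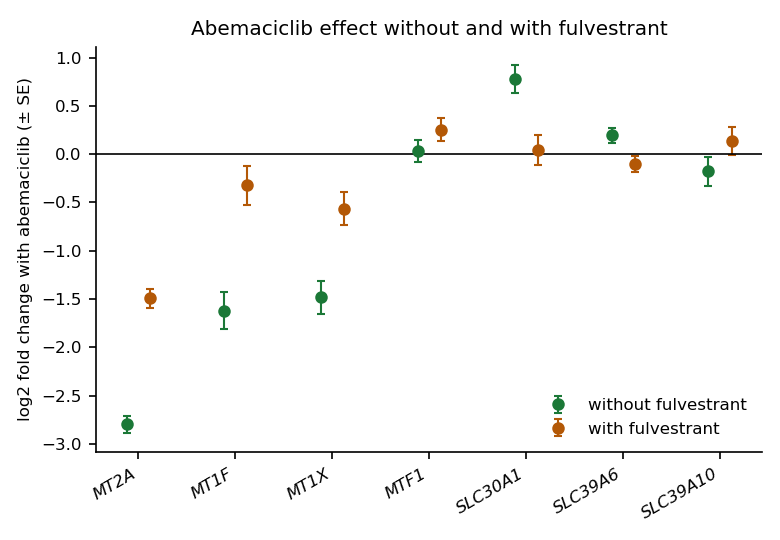
Log2 fold change with abemaciclib (y axis, error bars SE) for each of the 7 measured genes (x axis), without fulvestrant (abemaciclib against DMSO) and with fulvestrant (combination against fulvestrant). The 3 metallothioneins lie closer to 0 with fulvestrant, MT2A at -1.49 against -2.80, and SLC30A1 moves from 0.78 to 0.042.

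Across the 12 libraries, which carry the treatment differences, log2 CPM of MT2A had a Pearson r of 0.845 with MT1F and 0.837 with MT1X, and MT1F had 0.823 with MT1X. MTF1 had -0.155 with MT2A, and SLC30A1 had -0.264. The importer SLC39A6 and the exporter SLC30A1 had 0.707. These are descriptions over libraries that share treatments, without a test.

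Of 8472 genes with a mean of at least 10 CPM, the pattern most like that of MT2A belonged to WDR76 (r = 0.990, 98.8 CPM in DMSO and 14.0 with abemaciclib), AIF1L (0.987) and CCNE2 (0.987), the gene of cyclin E2, at 31.8 and 4.64 CPM. For MT1F these were KAT8 (0.958), PHF19 (0.956) and LRRCC1 (0.951), and for MT1X DHRS13 (0.959), HDAC1 (0.934) and CLSTN2 (0.932). The pattern of SLC30A1 was closest to DSCAM-AS1 (0.9499), RHOD (0.931) and CKAP4 (0.930). That of SLC39A6 was closest to RHOBTB3 (0.960), MRS2 (0.947) and AHNAK2 (0.944). For MTF1 the closest were SUPT7L (0.861), MFN2 (0.813) and RGS14 (0.792), and for SLC39A10 RHOT1 (0.907), TLK1 (0.898) and SNUPN (0.860). The likeness is in shape over the 12 libraries and not in level.

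The remaining zinc genes were tested as a list of 38 metallothioneins and transporters, of which 12 transporters passed the filter. Abemaciclib changed 2 of them against DMSO (16.7%, against 41.2% of all genes tested; edgeR's quasi-likelihood F test at an adjusted p under 0.05). Both fell: SLC39A4 (ZIP4, the intestinal zinc importer) by 0.35 on the log2 scale (SE 0.13, adjusted p = 0.0393) and SLC39A3 by 0.40 (SE 0.15, adjusted p = 0.0433). Neither call held without DMSO replicate 1, without abemaciclib replicate 2, without abemaciclib replicate 3, with upper-quartile scaling or in DESeq2. A single fall was called without DMSO replicate 2, abemaciclib replicate 1, fulvestrant replicate 1, combination replicate 2 or combination replicate 3. Without DMSO replicate 3 there were 1 rise and 1 fall, and without fulvestrant replicate 2 or fulvestrant replicate 3 the count was 3, with 1 rise and 2 falls.

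Fulvestrant changed 4 of the 12 (33.3%, against 51% of all genes tested). SLC39A4 fell from 55.2 ± 5.91 to 15.7 ± 3.41 CPM (log2 fold change -1.80 ± 0.15, adjusted p = 1.21e-10). SLC39A11, an importer of the same family, rose from 240.2 ± 46.3 to 641.5 ± 138 CPM (1.41 ± 0.18, adjusted p = 7.44e-05), SLC30A4, a vesicular exporter, rose from 7.52 ± 2.31 to 15.3 ± 1.60 CPM (1.06 ± 0.23, adjusted p = 0.000295), and SLC39A9 rose (0.27 ± 0.10, adjusted p = 0.0268). The combination changed 5 of the 12 (41.7%, against 55.2%), the same 4 genes in the same directions plus SLC30A5 (0.38 ± 0.15, adjusted p = 0.0343), with SLC39A4 at 14.0 ± 2.87 CPM (-1.98 ± 0.15, adjusted p = 1.21e-11).

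Against abemaciclib alone, the combination changed 4 of the 12 (33.3%, against 33.5% of all genes tested): SLC39A4 fell by 1.64 on the log2 scale (adjusted p = 2.88e-09), and SLC30A4 (1.12, adjusted p = 0.000205), SLC39A11 (0.88, adjusted p = 0.00304) and SLC39A9 (0.33, adjusted p = 0.00885) rose. Against fulvestrant alone it changed 0 of the 12 in edgeR's test (1.92% of all genes tested), with 0 at an unadjusted p under 0.05 and 0 in DESeq2. The interaction was called in 0 of the 12 (21.1% of all genes), with 1 at an unadjusted p under 0.05 and 0 in DESeq2. The 5 other exporters tested had a median log2 fold change of 0.086 with abemaciclib, 0.18 with fulvestrant and 0.22 with the combination, and the 7 other importers 0.12, -0.10 and 0.040.

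**Figure D5:**
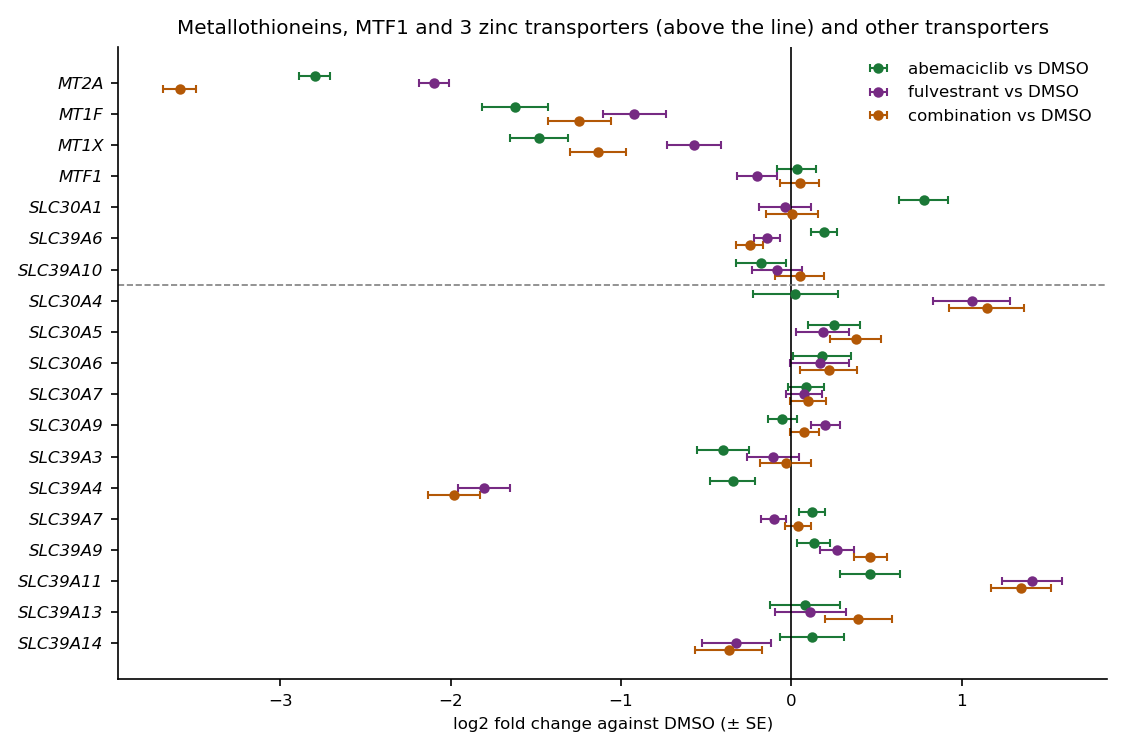
Log2 fold change against DMSO (x axis, error bars SE) with abemaciclib, fulvestrant and the combination, for the 7 measured genes of the set above the dashed line and the 12 other zinc transporters that passed the filter below it. MT2A reaches -3.59 with the combination, and among the other transporters SLC39A4 reaches -1.98 and SLC39A11 1.41.

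Lists of genes that share a metal or an inducer with the metallothioneins were set beside them, each tested in the same way. The shares to read their counts against are those of all genes tested, 41.2% with abemaciclib, 51% with fulvestrant and 55.2% with the combination. Of 12 copper genes tested, 6 rose and 1 fell with abemaciclib (median log2 fold change 0.32), and 3 rose and 3 fell with fulvestrant (0.13) and with the combination (0.17). The copper exporter ATP7A rose in all 3 comparisons with DMSO, by 0.88, 1.19 and 1.48. Of 14 iron genes tested, 7 rose and 2 fell with abemaciclib (0.13), 3 rose and 1 fell with fulvestrant (0.098) and 5 rose and 3 fell with the combination (0.065). As a share of the genes tested, the copper list had 58.3%, 50.0% and 50.0% called with abemaciclib, fulvestrant and the combination, and the iron list 64.3%, 28.6% and 57.1%.

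Of 16 oxidative stress genes linked to NRF2, 4 rose and 5 fell with abemaciclib (median -0.12), 4 and 5 with fulvestrant (-0.14) and 4 and 9 with the combination (-0.27). The glutathione synthesis subunit GCLM fell by 0.87 on the log2 scale with fulvestrant and by 0.94 with the combination. Of 13 heat shock genes, 3 rose and 4 fell with abemaciclib (-0.037), 3 and 8 with fulvestrant (-0.56) and 2 and 8 with the combination (-0.51). Of 13 genes of the glucocorticoid response, which also induces MT2A, 5 rose and 3 fell with abemaciclib (0.40) and with fulvestrant (0.23), and 6 rose and 5 fell with the combination (-0.11). The called shares with abemaciclib, fulvestrant and the combination were 56.2%, 56.2% and 81.2% for the oxidative stress list, 53.8%, 84.6% and 76.9% for the heat shock list and 61.5%, 61.5% and 84.6% for the glucocorticoid list, against the 41.2%, 51% and 55.2% of all genes. Among the glucocorticoid genes, the receptor gene NR3C1 fell by 1.02 on the log2 scale with abemaciclib (SE 0.11, adjusted p = 2.88e-08). The 5 that rose with the same drug included the induced genes DUSP1 (1.30), PER1 (1.03) and CEBPD (0.99). Other induced genes had lower means with abemaciclib than in DMSO: FKBP5 at 72.2 against 94.2 CPM and CDKN1C at 2.82 against 7.16 CPM. With fulvestrant, the induced gene TSC22D3 rose by 1.84 (adjusted p = 9.65e-06). The induced gene GLUL averaged 27.8 CPM with fulvestrant against 60.8 in DMSO, and it fell by 1.32 on the log2 scale with the combination.

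Of 13 markers of basal, mesenchymal, immune and endothelial cells, 2 passed the filter (ACTA2 and COL1A1), and CD3E, CD68, PECAM1 and COL1A2 had 0 reads in every library. Their summed level was 18.7 to 21.3 CPM in DMSO and 35.8 to 45.4 CPM in the treated groups, and ACTA2, a smooth muscle actin, rose by 2.85, 2.76 and 2.80 on the log2 scale with abemaciclib, fulvestrant and the combination. The part of these markers in the metallothionein values was not tested.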

How the data were processed

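The table the authors deposited holds raw counts of reads by gene symbol for 12 libraries (QuantSeq 3′ FWD). Per the study's methods and the submitters' processing notes, reads were trimmed, aligned to GRCh38 with STAR and counted with featureCounts 2.0.1. The strand setting and the treatment of reads with several places are not given in the sources used here. Of 60656 rows, 44 had no gene name and held 0 reads. Groups were taken from the treatment labels.

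The 8 genes, the gene lists and the tests were chosen with earlier results of these data known. Genes passing filterByExpr (minimum count 10, minimum total 15) were scaled by TMM and fitted with 4 group means in edgeR 4.0.16 (R 4.3.3, limma 3.58.1) with robust quasi-likelihood dispersions, and p-values were adjusted by the Benjamini-Hochberg method over 11803 genes at a threshold of 0.05. Per the study, replicates were independent cultures. An exact permutation test of 3 libraries against 3 cannot go below 0.1. No pair of libraries in a group agreed within sampling noise (chi-square per gene 1.88 to 15.3). CPM are edgeR values on scaled library sizes. Depth was 3299119 to 5164667 counts per library.

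Genes named from the lists were called with a log2 fold change of at least 0.5 and a mean of at least 10 CPM in a group, at most 4 per list and comparison, and not every such gene is reported. For each gene of the set, the 3 genes of highest Pearson r of log2 CPM (prior count 2) are named. SLC39A3, SLC39A9, SLC30A5, SLC39A1 and MT1A fall outside this rule and were named after their values were seen. The same holds for GATA3, CD3E, CD68, PECAM1, COL1A2, FKBP5 and CDKN1C. The pipeline was tested on simulated data. Alternatives were DESeq2 1.42.0, other scaling factors, other filters, a replicate block, leaving out mitochondrial transcripts, fitting only the groups compared, and leaving out each library.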

Additional observations from a re-analysis of the deposited data

How the results depend on the processing

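For the 7 measured genes, 833 alternative values of 42 log2 fold changes and interactions moved by at most 0.22. Of these, 0 moved by more than the SD between replicates. Leaving out a single library can hardly move a value by that SD, so for those fits this was largely fixed in advance. The sign changed in 20 of them, all in 8 values no larger than 0.084 in size. Another scaling moved the median of all genes by less than 0.1.

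Among the other 12 zinc transporters, the count changed by abemaciclib was 2, and it was 1 with DESeq2 (a gene that rose and was not among the 2), 0 with upper-quartile factors and 1 without a filter on low counts. Fitting just the groups compared gave 3, and leaving out single libraries gave 0 to 3. Fulvestrant changed 4 against DMSO (3 rises and 1 fall). This count was 3 without DMSO replicate 2, 5 with upper-quartile factors and 6 without a filter, which also tests further genes of the 38. The combination changed 5 against DMSO (4 rises and 1 fall). That count was 6 without a filter, and 4 without DMSO replicate 1 or 2 or without combination replicate 2 or 3. DESeq2, run without the filter on the list of 38, gave 2 rises and 2 falls with fulvestrant. With the combination it gave 3 rises and 2 falls. Against abemaciclib, the combination changed 4, and 3 without combination replicate 3. Several alternatives gave more: 5 without a filter, and 6 with a replicate block, with only the groups compared, or without fulvestrant replicate 2 or 3. For the interaction the count was 0, and 1 without a filter and 0 to 1 without single libraries (1 without fulvestrant replicate 2 or 3). The combination changed 227 genes against fulvestrant, 91 with at least 10 counts required in every library and 125 when the fit held just these 2 groups. Without fulvestrant replicate 3 this count was 588 and without combination replicate 3 it was 146, the extremes of all left-out libraries.

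Libraries of different groups with the same replicate number did not deviate together (correlation of deviations -0.215 to 0.119, over 0.1 in 2 of 18 pairs, and 5 of 12 libraries closest to their own number), so the numbers were not used as pairs. With the replicate block, abemaciclib changed 4799 genes against 4864 without it, the combination changed 6 of the 12 transporters against abemaciclib instead of 4, and the other counts for these transporters did not change. The depth limits MT1E, with 0 reads, and MT1A, with 0 to 10 reads per library.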
